A study of Mus musculus with 6 samples.

Results

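The genes described here encode the proteins of the cytosolic ribosome, 86 of the 54532 gene rows in the deposited table. They were chosen by name alone: protein-coding rows whose symbol starts with *Rpl* or *Rps* and a digit, with *Rplp0*, *Rplp1*, *Rplp2* and *Rpsa* added and the S6 kinases and rows named as pseudogenes left out. The set holds 52 large-subunit (*Rpl*) and 34 small-subunit (*Rps*) symbols, among them 8 paralogues and 1 protein, *Rps19bp1*, that binds a ribosomal protein. RNA was sequenced from primary macrophages of METRNL KO mice (METRNL-/-) and of WT mice (METRNL+/+), with 3 libraries of each genotype. *Metrnl* encodes the secreted protein meteorin-like. Both genotypes had been cultured and exposed to the yeast *Candida albicans* for 6 h, and every library is from challenged cells. The labels give neither age, sex, strain nor the kind of knockout allele, and they do not say whether replicates came from separate animals or cultures. P-values therefore measure the spread between these libraries only, which may be technical.

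A ribosome holds one copy of most of its proteins, and cells make them in matched amounts. Their mRNAs typically begin with a C followed by a run of pyrimidines, the 5′ terminal oligopyrimidine (TOP) motif, through which mTORC1 and the RNA-binding protein LARP1 control their translation. Their genes have spread many processed pseudogenes through mammalian genomes, and several carry small nucleolar RNAs in their introns. The comparison asks how the mRNAs of this machinery differ with *Metrnl* genotype under fungal challenge.

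Reads in genes were recovered as whole numbers from the FPKM (fragment counts adjusted for length and a scale for each library). They ranged from 14772746 to 15724897 in KO libraries and from 11026529 to 14309247 in WT libraries. The scale did not follow reads in genes in every library. For *Rpl10l*, 3 reads would be 0.229 FPKM in KO replicate 1 (14772746 reads) and 0.183 FPKM in WT replicate 1 (14309247 reads). The part of this scale in the results was not tested. *Metrnl* itself stood at 51.2, 63.6 and 62.8 FPKM in KO libraries and at 93.5, 63.2 and 69.8 FPKM in WT libraries. The groups overlapped and the gene was not called (log2 fold change -0.33 ± 0.16 SE, limma adjusted p = 0.181), so its level does not check the genotype labels. KO here means the libraries labelled KO. The extraction label speaks of retinas, but the 11 retinal markers summed to 0.932 to 1.40 FPKM in KO libraries and 0.771 to 0.865 FPKM in WT libraries. The 13 macrophage markers summed to 8601 to 9281 FPKM in KO libraries and 4815 to 5627 FPKM in WT libraries, with 6 called higher (3 to 6 without single libraries, 1 to 8 over all settings) and 2 lower. The 15 B cell markers summed to 31.8 to 40.5 FPKM in KO libraries and 607 to 787 FPKM in WT libraries, and all 13 that were tested were lower. All 4 tested T and NK cell markers were lower too, with sums of 2.33 to 3.31 FPKM in KO libraries and 10.03 to 11.8 FPKM in WT libraries. Of 7 tested mesothelial and fibroblast markers 4 were lower, and of 9 tested neutrophil markers 2 were. These shifts in other cell types accompany every result below, and their part in it was not tested. In bulk RNA, fewer cells of a type and less RNA per cell cannot be told apart.

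Most ribosomal protein mRNAs differed little between the genotypes, and the small differences mostly lay on the low side in KO. Of 83 members with a mean of at least 0.5 FPKM, 8 fell and 1 rose in KO (limma on log2(FPKM + 1), Benjamini-Hochberg adjusted p below 0.05 over 11689 genes). Of these members 9.64% fell and 1.2% rose, against 12.4% and 15.7% of all genes tested (28.0% in either direction). In this fit the share that fell was therefore no higher than the background. Before adjustment, 19 members had p below 0.05, of which 18 were lower in KO. Adjustment never makes a p-value smaller, so at least 28.0% of all genes tested passed the same threshold before adjustment. The 19 of 83 members are a smaller share than that, so this count does not set the members apart from the background. The share of all genes that passed it on the low side was not counted. The log2 fold change was below 0 for 73 members and above 0 for 10. That is 88.0% below 0, against 46.2% of all genes tested. The median log2 fold change was -0.13, with quartiles of -0.21 and -0.05, and the median over all genes tested was 0.03. The median ratio of mean FPKM, KO over WT, was 0.909 for the members and 1.03 for all genes. All 3 KO values lay below all 3 WT values for 23 members and above them for 1, while 59 members overlapped. Over all genes tested these shares were 19.9% and 25.7%.

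The count of members that fell was not stable. It was 8 with all libraries, where 12.4% of all genes tested fell. It was 2 without KO replicate 2 (all genes 7.36%) and 1 without KO replicate 3 (all genes 7.38%). It was 3 without WT replicate 2 (all genes 8.02%) and 1 without WT replicate 3 (all genes 7.30%). Calls over all genes thus became fewer in these settings too. It was 36 of 83 when replicate 1 of both genotypes was left out, where 16.3% of all genes tested fell. It was 50 of 83 after quantile normalization, where 11.8% of all genes tested fell. Scaling each library to the same FPKM sum (TPM) gave 6 members lower and 0 higher. On the same 11689 genes the TPM scale gave 542 calls higher and 1161 lower, against 1833 and 1445 on the deposited scale, and with the expression minimum applied to TPM, which 15259 genes passed, 511 and 1324. The median log2 fold change of the members stayed below that of all genes tested under every setting run, by 0.13 to 0.33.

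**Figure D1:**
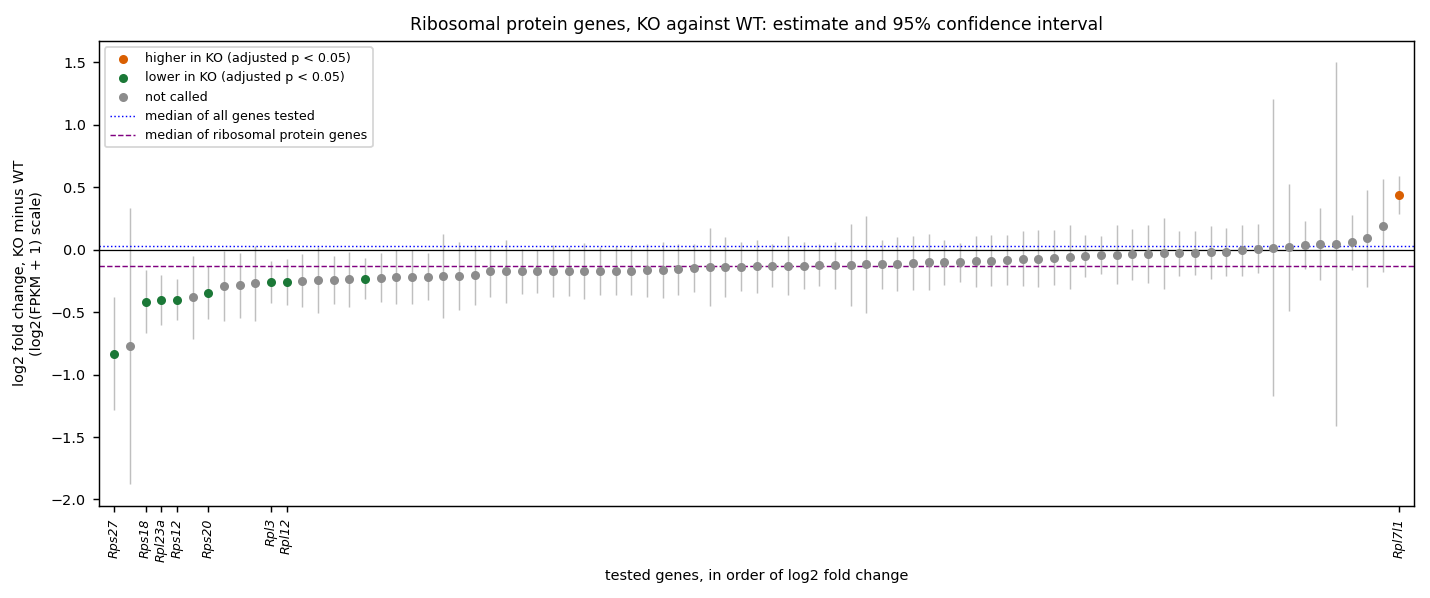
Log2 fold change (KO minus WT, from log2(FPKM + 1) values) of each tested ribosomal protein gene with its 95% confidence interval, ordered by size, with calls at an adjusted p below 0.05 coloured and 8 of them named. Of the 83 points 73 lie below 0, and the 9 called genes are 8 below and *Rpl7l1* above.

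Added together, the 86 members came to 12474, 11170 and 11384 FPKM in KO libraries and to 12043, 13173 and 13133 FPKM in WT libraries. KO replicate 1 lay above WT replicate 1, so the groups overlapped, and the ratio of the means was 0.913 (11676 ± 700 in KO and 12783 ± 641 FPKM in WT, SD, n = 3 each). As a share of each library's FPKM sum they took 3.03%, 3.33% and 3.403% in KO libraries and 3.87%, 3.87% and 3.59% in WT libraries. On that scale the groups did not overlap and the ratio was 0.862. As a share of reads in genes they took 1.79%, 1.88% and 1.89% in KO libraries and 2.27%, 2.33% and 2.21% in WT libraries, a ratio of 0.818, again with no overlap. The direction was the same on the 3 scales, but its size and whether the groups separated depended on the scale. Library KO replicate 1 stood apart from the other KO libraries on the deposited scale: the median member was at 96.7%, 85.7% and 88.4% of its WT mean in KO libraries 1 to 3 and at 95.2%, 102% and 103% in WT libraries 1 to 3. On the TPM scale the same medians were 79.5%, 86.5% and 89.5% in KO libraries and 103%, 102% and 95.6% in WT libraries.

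**Figure D2:**
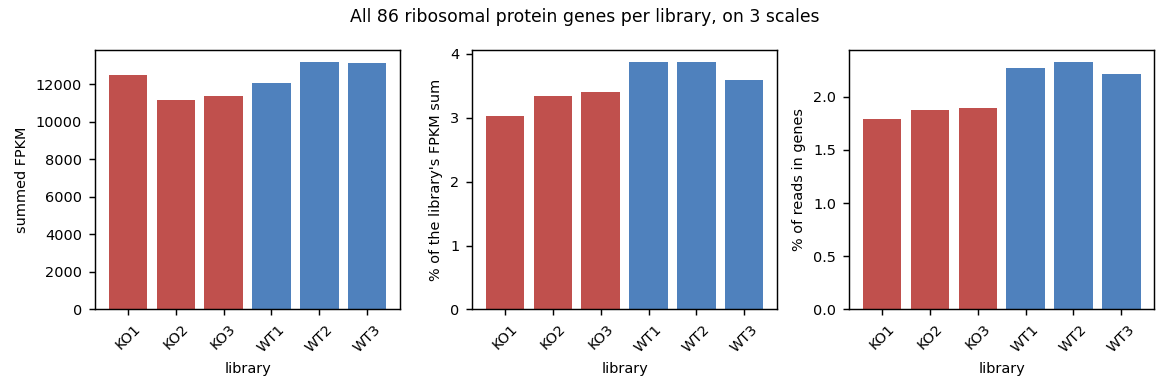
Bars give the summed level of the 86 ribosomal protein genes in each library as FPKM, as a percent of the library's FPKM sum and as a percent of reads in genes, KO libraries left of WT libraries. On the deposited FPKM scale the summed level of KO replicate 1, 12474, lies above WT replicate 1, 12043, while the shares of the FPKM sum and of reads do not overlap.

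The name rule does not use the sequence at the start of the gene. RefSeq start sites on GRCm38.p6 were available for 66 of the 86 members. The lines that follow, shown because TOP mRNAs are defined by their first bases, give 15 bases before and 15 bases from the start, on the coding strand, with runs of at least 5 pyrimidines in capitals. Among them are called genes with and without a pyrimidine run at the start, the retrocopy of *Rps27*, and uncalled members with long runs for comparison.
Rps27 (chr3:90213634-90213663, minus): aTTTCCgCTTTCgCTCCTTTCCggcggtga
Rps27rt (chr9:114982725-114982754, minus): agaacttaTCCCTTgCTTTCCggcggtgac
Rps18 (chr17:33955651-33955680, minus): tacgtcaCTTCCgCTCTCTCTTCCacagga
Rps6 (chr4:86857353-86857382, minus): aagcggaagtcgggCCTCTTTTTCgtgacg
Rpl15 (chr14:18270972-18271001, minus): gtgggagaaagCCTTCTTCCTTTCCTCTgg
Rpl12 (chr2:32961697-32961726, plus): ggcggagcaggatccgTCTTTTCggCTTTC
Rps12 (chr10:23787195-23787224, minus): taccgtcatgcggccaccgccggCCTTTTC
Rpl7l1 (chr17:46782642-46782671, minus): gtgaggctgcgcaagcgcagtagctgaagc
The unbroken run of pyrimidines from the start base was 7 bases in *Rps27*, 9 in *Rps18*, 9 in *Rps6* and 13 in *Rpl15*, against 0 in *Rpl12* and *Rps12* and 1 in *Rpl7l1*. *Rpl12* and *Rps12* do hold runs a few bases further on, so an annotated start that is off by some bases would change this count.

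A C at the annotated start followed by at least 4 further pyrimidines was present in 14 of 66 members (21.2%), against 3.01% of all 27025 genes with start windows. A gene with several starts was counted where any of its windows matched. In the 300-base windows, on either strand, CCGGAAG was present in 39.4% of members and 9.93% of all these genes, AAGATGG in 15.2% and 7.28%, and TATAAA in 10.6% and 15.67%. The first is a core bound by ETS-family factors and the second is the core of the YY1 motif. A match describes letters in this window and not a bound site. Members with the pyrimidine start had a median log2 fold change of -0.19, with 2 of 14 called lower. Those without it had a median of -0.12, with 2 of 49 called lower and 1 higher. Of all genes tested 12.4% were lower and 15.7% higher.

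Beginning with the stalk, the flexible arm of the large subunit that recruits elongation factors, *Rplp1* and *Rplp0* were the most abundant members per length. *Rplp1* had 861, 807 and 771 FPKM in KO libraries and 803, 891 and 867 FPKM in WT libraries. *Rplp0* had 693, 622 and 632 FPKM in KO libraries and 649, 683 and 714 FPKM in WT libraries. *Rplp2* had 122, 107 and 107 FPKM in KO libraries and 117, 127 and 124 FPKM in WT libraries. The genotypes overlapped in all 3 genes and none was called, with log2 fold changes of -0.07, -0.07 and -0.14 and limma adjusted p of 0.624, 0.603 and 0.268. The next most abundant members, *Rps3a1* of the small and *Rpl19* of the large subunit, also overlapped. *Rps3a1* averaged 525 ± 17.02 FPKM in KO and 555 ± 26.8 FPKM in WT, and *Rpl19* averaged 392 ± 15.8 FPKM in KO and 397 ± 18.6 FPKM in WT (SD, n = 3 each).

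Against 12.4% of all genes tested that fell and 15.7% that rose, 5 of the 31 small-subunit proteins, all tested, fell and none rose. Their median log2 fold change was -0.12. The largest fall was that of *Rps27*, ENSMUSG00000090733 at chr3:90212522-90213651 on the minus strand, a zinc-binding protein of the small subunit. It had 58.8, 87.2 and 57.8 FPKM in KO libraries and 135, 102 and 124 FPKM in WT libraries. The genotypes did not overlap, at a ratio of 0.564 (log2 fold change -0.83 ± 0.19 SE, limma adjusted p = 0.0213), but near-identical sequence is also counted at a copy described below. Its call held under 12 of 19 alternative settings and was lost without KO replicate 1, KO replicate 3, WT replicate 1 or WT replicate 3 (adjusted p = 0.0539, 0.0741, 0.0539 and 0.072), with log2 fold changes of -0.80 to -0.73. *Rps12*, at chr10:23785183-23787275 (minus), whose fly counterpart takes part in cell competition, had 49.6, 46.7 and 48.7 FPKM in KO libraries and 62.1, 68.3 and 62.1 FPKM in WT libraries. Every KO value lay below every WT value and the ratio was 0.754 (log2 fold change -0.40 ± 0.07 SE, limma adjusted p = 0.00882). *Rps18*, at chr17:33951999-33956001 (minus), a protein of the head of the small subunit, had 93.1, 77.3 and 82.1 FPKM in KO libraries and 100, 118 and 119 FPKM in WT libraries. Its ratio was 0.748 and the groups were again apart, by the gap between KO replicate 1 and WT replicate 1 (log2 fold change -0.42 ± 0.11 SE, limma adjusted p = 0.0306).

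*Rps20*, at chr4:3831334-3835665 (minus) and also of the subunit's head, had 53.01, 51.4 and 51.6 FPKM in KO libraries and 58.8, 70.3 and 70.3 FPKM in WT libraries (log2 fold change -0.34 ± 0.09 SE, limma adjusted p = 0.0308). Values in KO were close together and WT replicate 1 lay nearest to them. *Rps12* was called under 18 of 19 alternative settings, *Rps18* under 13 and *Rps20* under 12. *Rps18* lost its call without KO replicate 2, KO replicate 3, WT replicate 2 or WT replicate 3. *Rps20* lost its call without any of these libraries and also without KO replicate 1.

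Against the same shares of all genes tested (12.4% lower, 15.7% higher), 3 of the 43 large-subunit proteins, all tested, fell and none rose. Their median log2 fold change was -0.17. *Rpl23a*, ENSMUSG00000058546 at chr11:78180932-78183584 (minus), sits near the exit of the nascent chain. It had 110, 103 and 106 FPKM in KO libraries and 141, 128 and 152 FPKM in WT libraries. The groups were apart, at a ratio of 0.754 (log2 fold change -0.40 ± 0.08 SE, limma adjusted p = 0.0163). It was called under 15 of 19 alternatives, and not without KO replicate 2, KO replicate 3 or WT replicate 3 (adjusted p = 0.0701, 0.0672 and 0.0574). *Rpl3*, at chr15:80077791-80091868 (minus), which reaches towards the peptidyl transferase centre, had 119, 119 and 118 FPKM in KO libraries and 137, 151 and 138 FPKM in WT libraries. Its KO values were nearly equal and all lower, at a ratio of 0.833 (log2 fold change -0.26 ± 0.07 SE, limma adjusted p = 0.0346). *Rpl12*, at chr2:32961559-32965345 (plus), which forms the base of the stalk, had 69.3, 65.3 and 65.8 FPKM in KO libraries and 75.3, 78.7 and 86.6 FPKM in WT libraries (log2 fold change -0.26 ± 0.08 SE, limma adjusted p = 0.0485). *Rpl12* was called under 8 of 19 alternatives and *Rpl3* under 10. Both lost their call without KO replicate 1, 2 or 3 and without WT replicate 2 or 3.

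*Rpl7l1*, ENSMUSG00000063888 at chr17:46773907-46782672 (minus), was the single member that rose. It is a relative of *Rpl7* whose yeast counterpart acts in the assembly of the large subunit. It had 21.0, 20.2 and 20.8 FPKM in KO libraries and 15.8, 14.8 and 14.3 FPKM in WT libraries. All KO values lay above all WT values, at a ratio of 1.38 (log2 fold change 0.44 ± 0.06 SE, limma adjusted p = 0.00469). This call held under 17 of 19 alternatives and was lost on the TPM scale, where the log2 fold change was 0.37 (adjusted p = 0.129, and 0.117 on the genes of the reported fit). Its relative *Rpl7* averaged 142 ± 10.0004 FPKM in KO and 160 ± 7.09 FPKM in WT (SD, n = 3 each) and was not called (limma adjusted p = 0.165).

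**Figure D3:**
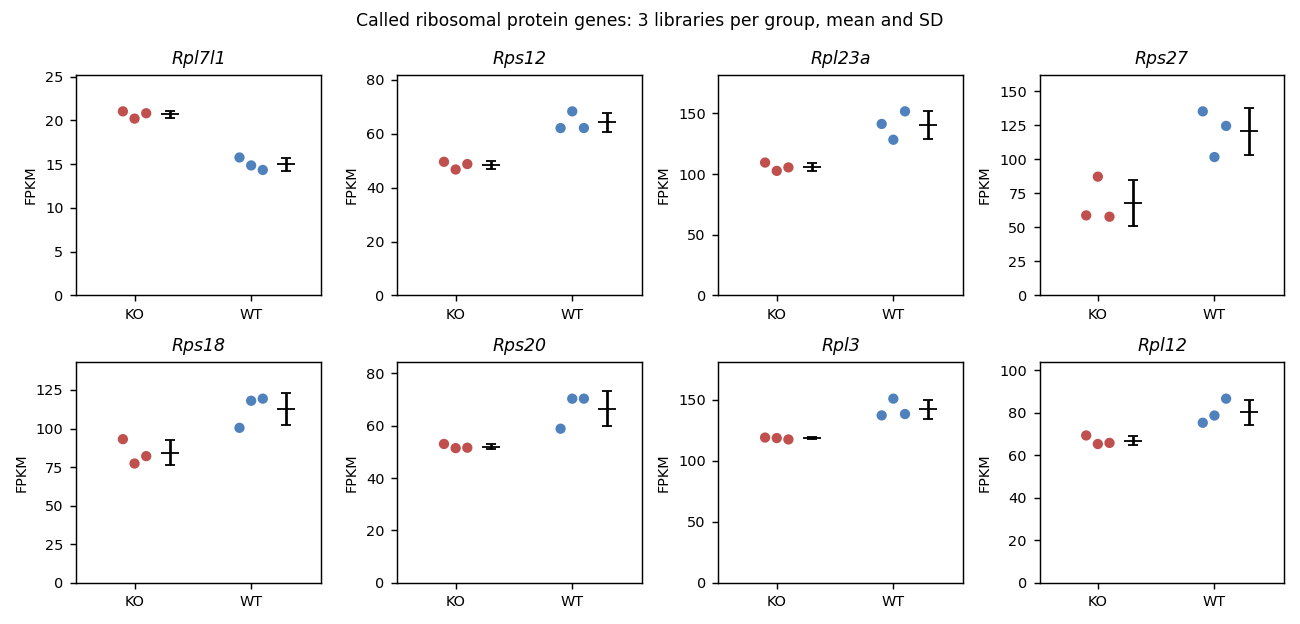
FPKM in each library for 8 called ribosomal protein genes, KO libraries left of WT libraries, with a point for each library and the mean and SD (n = 3) beside them. In every panel the 3 KO points do not overlap the 3 WT points, and *Rpl7l1* is the one gene with KO above WT.

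The next largest log2 fold changes above 0 were those of *Rps19bp1* (0.19), *Rps28* (0.09) and *Rpl35* (0.06), and none was called. *Rps28*, of the small subunit, had 46.1, 40.03 and 42.2 FPKM in KO libraries and 49.5, 40.9 and 31.7 FPKM in WT libraries. *Rpl35*, of the large subunit, had 108, 95.1 and 94.7 FPKM in KO libraries and 87.7, 94.4 and 103 FPKM in WT libraries. Both overlapped between the genotypes, and both values lie below 0 after quantile normalization.

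No other paralogue passed the test. *Rpl22l1*, a relative of *Rpl22* that can take its place, averaged 13 ± 1.498 FPKM in KO and 14.3 ± 0.378 FPKM in WT, and *Rpl22* averaged 32.0 ± 1.76 FPKM in KO and 37.4 ± 3.54 FPKM in WT (SD, n = 3 each). *Rps27l*, a p53 target related to *Rps27*, averaged 28.2 ± 3.79 FPKM in KO and 29.3 ± 1.74 FPKM in WT. *Rpl39* stood at 101 FPKM in KO and 111 FPKM in WT and its testis-rich relative *Rpl39l* at 0.583 FPKM in KO and 0.723 FPKM in WT. *Rpl36a* averaged 32.6 ± 2.51 FPKM in KO and 40.04 ± 4.75 FPKM in WT (limma adjusted p = 0.099). *Rps4x* averaged 294 ± 13.8 FPKM in KO and 319 ± 23.1 FPKM in WT. *Rpl10*, which joins the large subunit last, averaged 281 ± 16.3 FPKM in KO and 279 ± 12.9 FPKM in WT, a log2 fold change of 0.01 that lies below 0 on the TPM scale. *Rpl36al*, *Rpl3l* and *Rpl10l* were under the expression minimum and were not tested. *Rpl3l*, the striated-muscle form of *Rpl3*, stood at 0 to 0.0812 FPKM in KO libraries and 0.0517 to 0.194 FPKM in WT libraries. *Rpl10l*, a testis form of *Rpl10*, had no read in any library, which at 3 reads allows up to 0.186 to 0.229 FPKM in KO libraries and 0.183 to 0.249 FPKM in WT libraries, by counting error only.

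Several members have roles beyond the ribosome, and none of those listed for such roles was called. *Rpl5*, *Rpl11*, *Rpl23* and *Rpl26* act on the p53 pathway, the first 3 by binding MDM2. *Rpl5* had 84.0, 82.1 and 78.8 FPKM in KO libraries and 85.1, 86.6 and 90.9 FPKM in WT libraries, so the groups were apart by a small step (log2 fold change -0.10, limma adjusted p = 0.304). *Rpl11* averaged 74.5 ± 3.35 FPKM in KO and 81.4 ± 3.60 FPKM in WT, and *Rpl26* 163 ± 1.96 FPKM in KO and 166 ± 15.4 FPKM in WT (SD, n = 3 each). *Rpl23* averaged 161 ± 18.0 FPKM in KO and 156 ± 17.2 FPKM in WT, a log2 fold change of 0.04 that lies below 0 on the TPM scale. *Rps6*, the small-subunit protein phosphorylated by S6 kinases, had 217, 197 and 198 FPKM in KO libraries and 234, 235 and 256 FPKM in WT libraries. It missed the threshold although the groups did not overlap (log2 fold change -0.24, limma adjusted p = 0.0659). *Rps3*, which also takes part in NF-kappaB complexes, had 114, 102 and 102 FPKM in KO libraries and 117, 119 and 122 FPKM in WT libraries (limma adjusted p = 0.13). *Rpl13a*, part of the complex that silences inflammatory mRNAs after interferon-gamma in human cells, stood at 3.62 ± 0.371 FPKM in KO and 4.22 ± 0.534 FPKM in WT (limma adjusted p = 0.265). *Rps19*, *Rpsa* and *Rps19bp1* had adjusted p of 0.642, 0.287 and 0.398.

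The loci of 30 of the 86 members (34.9%) held annotated small nucleolar RNAs, 58 in all, against 1.9% of 9738 expressed protein-coding genes. *Rpl4* held 5 and *Rpl13a* held 4. Across the 83 tested members the log2 fold change showed little relation to gene length (Pearson r = -0.03, Spearman rho = -0.12) or to mean FPKM (r = 0.01, rho = 0.11), as a description of genes that share the same libraries.

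Reads were also counted at near copies of many members. Transcripts at other loci matched a member over at least 100 bases at 95% identity or more in 632 rows, of which 616 are annotated as pseudogenes and 460 had reads. They belonged to 81 members. For 6 members the copies held more than 50% of the family's reads: *Rps10* (97.88%), *Rpl24* (89.94%), *Rpl17* (72.76%), *Rpl21* (71.07%), *Rpl36al* (53.47%) and *Rpl10l*. The values of these members alone are uncertain, since the counting rule for reads that match several places is not given in the sources used here. Smaller shares leave the same doubt in called members such as *Rps12* (43.23%) and *Rpl23a* (26.67%). With copies merged these 2 were still called lower, at log2 fold changes of -0.27 and -0.36 (limma adjusted p = 0.0432 and 0.0276). *Rps10* stood at 0.842 FPKM in KO and 0.875 FPKM in WT, but with its copies added, on its own length, at 44.0, 40.5 and 35.7 FPKM in KO libraries and 39.7, 38.9 and 46.0 FPKM in WT libraries.

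*Rps27* and *Rps27rt*, its retrocopy on chromosome 9, are identical over 341 bases. *Rps27rt* had 242, 101 and 199 FPKM in KO libraries and 66.9, 304 and 215 FPKM in WT libraries, the widest spread within a group of any tested member (CV 52.7%). Low libraries of one row were high in the other: KO replicate 2 was the highest KO library for *Rps27* and the lowest for *Rps27rt*, and WT replicate 1 was the highest WT library for *Rps27* and the lowest for *Rps27rt*. Added together on the length of *Rps27*, they came to 145, 123 and 129 FPKM in KO libraries and 159, 211 and 201 FPKM in WT libraries. The sum kept the direction and the separation at a ratio of 0.697 (133 ± 11.4 FPKM in KO and 190 ± 27.5 FPKM in WT, SD, n = 3 each), against 0.564 for *Rps27* alone.

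*Rpl17* behaved likewise with *Rpl17-ps10*, a processed pseudogene that is 99.279% identical over 555 bases. *Rpl17* alone had 89.97, 88 and 152 FPKM in KO libraries and 105, 108 and 102 FPKM in WT libraries, with KO replicate 3 standing out. The sum of both, on the length of *Rpl17*, was 271, 237 and 244 FPKM in KO libraries and 278, 310 and 309 FPKM in WT libraries. The high KO value was gone in the sum and the groups no longer overlapped, at a ratio of 0.839. *Rps12* with *Rps12-ps3*, a row annotated as protein-coding and identical over 494 bases, came to 95.4, 86.1 and 83.4 FPKM in KO libraries and 102, 108 and 111 FPKM in WT libraries, at a ratio of 0.825 against 0.754 alone.

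*Rps27a* stayed uneven with its copies added. *Rps27a*, a fusion of ubiquitin with a small-subunit protein, had 107, 133 and 47.6 FPKM in KO libraries and 47.9, 129 and 107 FPKM in WT libraries, and with copies 116, 140 and 56.0 FPKM in KO libraries and 55.9, 136 and 114 FPKM in WT libraries. *Rpl7a* had 44.5, 18.2 and 20.9 FPKM in KO libraries and 59.5, 61.2 and 24.4 FPKM in WT libraries, the second largest log2 fold change below 0, at -0.77 ± 0.46 SE, but the groups overlapped and it was not called (limma adjusted p = 0.259). With its copies it came to 73.2, 43.7 and 46.9 FPKM in KO libraries and 81.2, 81.2 and 51.5 FPKM in WT libraries. The sum had a ratio of 0.766, against 0.576 for the gene alone, and a log2 fold change of -0.39, and the groups still overlapped. With near copies outside the set merged into each member, 1 member rose and 7 fell among 84 tested. Of all genes tested in that setting 16.1% rose and 12.55% fell. *Rpl12* was no longer called (log2 fold change -0.24, limma adjusted p = 0.0665). *Rps27* and *Rps27rt*, both members, stayed separate rows there, so the call of *Rps27* (limma adjusted p = 0.0207) was not a call of their sum.

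**Figure D4:**
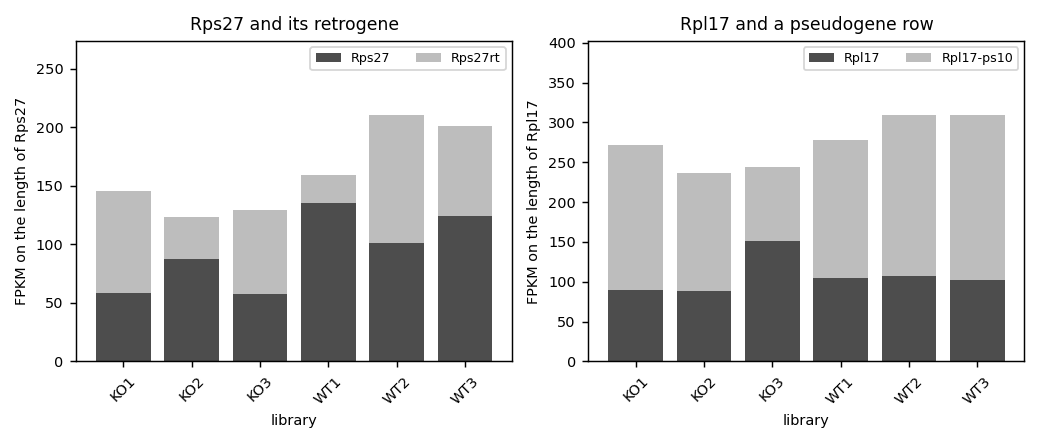
Stacked bars give, for each library, the FPKM of *Rps27* with *Rps27rt* and of *Rpl17* with *Rpl17-ps10*, each copy recomputed on the member's length, KO libraries left of WT libraries. *Rps27* with *Rps27rt* lies at 123 to 145 FPKM in KO libraries and 159 to 211 FPKM in WT libraries.

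Ribosomal proteins whose genes carry other names did not pass the test. *Fau*, which encodes a small-subunit protein fused to a ubiquitin-like domain, stood at 522, 444 and 465 FPKM in KO libraries and 475, 478 and 543 FPKM in WT libraries. *Rack1*, a scaffold on the small subunit, averaged 121 FPKM in KO and 127 FPKM in WT. Against the 15.7% of all genes called higher and 12.4% called lower, the following lists are described by their counts. Of 21 other mRNAs that carry TOP motifs, such as those of translation factors, 2 were lower and none higher, with a median log2 fold change of -0.11. Those 2 were *Eef1g*, a subunit of the elongation factor 1 complex (82.6 ± 4.50 FPKM in KO and 111 ± 4.23 FPKM in WT, limma adjusted p = 0.0084), and *Hnrnpa1*, an RNA-binding protein (51.1 ± 1.29 FPKM in KO and 66.2 ± 1.15 FPKM in WT, limma adjusted p = 0.00681, SD, n = 3 each). The lower count was 10 after quantile normalization, 8 with array weights, 6 with voom and 0 with the replicate block.

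Among 23 tested regulators of TOP mRNA translation 9 rose and 1 fell, with a median log2 fold change of 0.14. The higher count was 2 on the TPM scale, 4 without KO replicate 2, 3 without KO replicate 3 and 5 without WT replicate 3, and the lower call was lost whichever 1 library was left out. *Rheb*, the GTPase that activates mTORC1, had 23.0, 23.9 and 23.5 FPKM in KO libraries and 11.8, 11.2 and 11.1 FPKM in WT libraries (ratio 2.06, limma adjusted p = 2.18e-04). *Eif4ebp1*, which restrains the cap-binding factor eIF4E, had 85.5, 85.5 and 88.5 FPKM in KO libraries and 53, 46.8 and 50.4 FPKM in WT libraries (ratio 1.73, limma adjusted p = 9.72e-04). The genotypes were well apart in both genes, which act in opposite directions on translation. *Cnbp*, which binds TOP mRNAs, averaged 60.7 ± 2.09 FPKM in KO and 46.1 ± 2.78 FPKM in WT (SD, n = 3 each, limma adjusted p = 0.0103). *Larp1* and *Mtor*, chosen after their values were seen, were not called, at adjusted p of 0.565 and 0.162.

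Ribosome assembly factors moved in both directions: of 76 tested, 16 fell and 6 rose, with a median log2 fold change of -0.11. The lower count was 8, 7, 10, 8 and 6 without KO replicate 2, KO replicate 3, WT replicate 1, WT replicate 2 and WT replicate 3, and 10 with a minimum of 2 FPKM. The higher count was 3, 1 and 2 without KO replicate 1, KO replicate 3 and WT replicate 2, and 1 on the TPM scale. *Dkc1*, the pseudouridine synthase of H/ACA particles, had 0.797, 0.753 and 0.955 FPKM in KO libraries and 2.78, 3.01 and 2.69 FPKM in WT libraries (ratio 0.295, limma adjusted p = 5.70e-04). *Mybbp1a*, a nucleolar regulator of rRNA synthesis, averaged 11.5 ± 0.281 FPKM in KO and 18.1 ± 0.416 FPKM in WT, and *Nop2*, an rRNA methyltransferase, 5.18 ± 0.366 FPKM in KO and 9.07 ± 0.521 FPKM in WT (SD, n = 3 each). Both fell, at limma adjusted p of 0.00113 and 0.00181. *Nop14*, of the small-subunit processome, was chosen after its values were seen, and rose to 22.03 ± 1.195 FPKM in KO, against 14.6 ± 0.411 FPKM in WT (limma adjusted p = 0.00243). Non-coding host genes of small nucleolar RNAs fell in 5 of 7 tested, with a median log2 fold change of -0.53. *Gas5* had 3.45, 3.71 and 3.96 FPKM in KO libraries and 6.45, 8.40 and 7.37 FPKM in WT libraries (ratio 0.50, limma adjusted p = 0.00277). *Snhg1* and *Snhg15* fell as well, at ratios of 0.541 and 0.411.

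Carriers that escort new ribosomal proteins were mixed, with 3 of 12 higher and 1 lower. On the TPM scale none was higher, and the lower call was lost without KO replicate 1, KO replicate 3, WT replicate 2 or WT replicate 3. *Ipo5*, an importin, averaged 39.4 ± 2.24 FPKM in KO and 28.8 ± 1.28 FPKM in WT (limma adjusted p = 0.00702), while *Grwd1*, a chaperone of RPL3, averaged 2.44 ± 0.324 FPKM in KO and 3.83 ± 0.543 FPKM in WT (limma adjusted p = 0.0251). Of 14 factors that clear stalled ribosomes 4 rose and 1 fell, and the higher count was 1 or 2 whichever 1 library was left out, and 1 on the TPM scale. *Gtpbp2*, a rescue GTPase, stood at 29.3 ± 3.01 FPKM in KO and 15.8 ± 1.06 FPKM in WT, and its relative *Gtpbp1* at 3.31 ± 0.130 FPKM in KO and 5.30 ± 0.544 FPKM in WT (limma adjusted p of 0.00199 and 0.00627, SD, n = 3 each). On the p53 axis 2 of 10 genes rose and 2 fell, near the shares of all genes, and the higher count was 0 or 1 whichever 1 library was left out. *Trp53inp1* fell to 0.929 ± 0.152 FPKM in KO, against 2.91 ± 0.409 FPKM in WT (limma adjusted p = 0.00187), and *Bax*, a pro-apoptotic BCL2 relative, rose to 74.6 ± 6.16 FPKM in KO, against 56.8 ± 3.65 FPKM in WT (limma adjusted p = 0.0215). The 14 tested mitochondrially encoded genes gave no call, at a median log2 fold change of -0.18. Their lower count was 0 to 3 without single libraries and 0 to 11 over all settings.

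**Figure D5:**
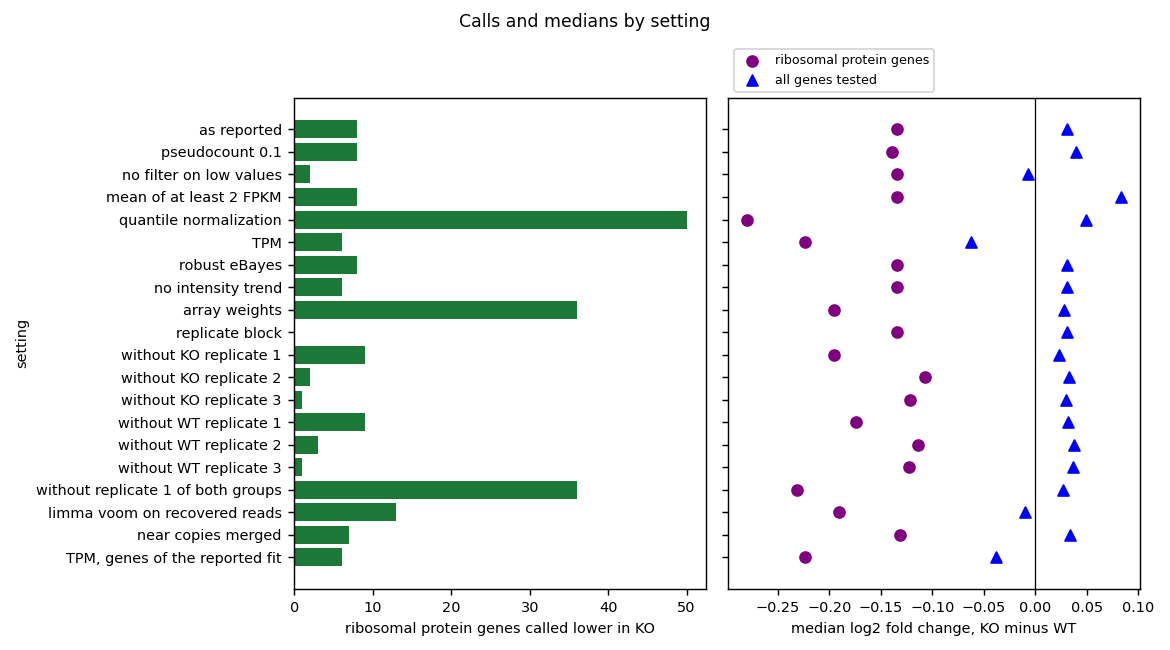
Median log2 fold change of the members and of all genes tested, and the number of members called lower, under the reported fit and each alternative setting. The number called lower runs from 0 to 50, while the members' median stays below that of all genes in each setting.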

How the data were processed

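The authors deposited a single FPKM table of 54532 Ensembl genes, and the submitters' processing notes name the build as GRCm38 (mm10). No aligner, counting tool or use of strand is stated in the sources used here. Each library's FPKM times gene length came in whole steps (within 0.05), and the number of steps was taken as reads. For tests, limma 3.58.1 (R 4.3.3) was fitted to log2(FPKM + 1) with genotype as the one term and eBayes with trend, in the 11689 genes that averaged 0.5 FPKM or more. A gene was called where its Benjamini-Hochberg adjusted p was below 0.05. Differences on this log2 scale run KO minus WT and understate changes of low genes. Folds are ratios of mean FPKM. The fit was tested on simulated counts scaled by each library's reads in genes. That simulation leaves out the deposited library scale, so it cannot speak to the effect of that scale.

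Near copies came from BLAST+ 2.17.0 (megablast) of members' GENCODE M21 protein-coding transcripts against all M21 transcripts, at 95% identity or more over at least 100 bases and 50% of the copy. Start windows are RefSeq's on GRCm38.p6. Values are given for called members, the 4 most abundant, the 4 largest changes each way, paralogue pairs, members with other roles, the stalk and up to 3 called genes of each pathway list. The members, lists and rule were chosen with earlier results of these data known, so no test was made over a list. Some genes that the rule takes, 1 called member among them, are not reported here. Alternatives changed the pseudocount, filter, scaling, weights, replicates and test.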

Additional observations from a re-analysis of the deposited data

How the results depend on the processing

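The count of members lower in KO was 8 of 83 as reported, where 12.4% of all genes tested were lower. It was 2 of 85 with no filter on low values (all genes 4.17%) and 50 of 83 after quantile normalization (all genes 11.8%). It was 36 of 83 with array weights (all genes 18.4%) and 36 of 83 without replicate 1 of both groups (all genes 16.3%). With limma voom on the recovered reads it was 13 of 83 (all genes 14.8%). It ran from 1 to 9 when single libraries were left out (all genes 7.30% to 11.5%). With the replicate number as a block it was 0 (all genes 5.17%). Same-numbered KO and WT libraries did not deviate together (r = -0.50, -0.19 and -0.16). With 3 libraries a genotype, these values cannot decide whether same-numbered libraries were paired, and the labels do not say. The count of members higher, 1 as reported, was 0 on the TPM scale, also on the genes of the reported fit, and 0 among ribosomal proteins only, which leaves out *Rpl7l1*. The members' median log2 fold change, -0.13 as reported, was -0.28 after quantile normalization, -0.22 on the TPM scale, also on the genes of the reported fit, and -0.23 without replicate 1 of both groups, and -0.20 to -0.11 without single libraries. The ratio of summed FPKM, 0.913, was 0.862 as a TPM share, 0.857 without replicate 1 of both groups, 0.911 with near copies added and 0.882 to 0.933 without single libraries. The causes were not tested.

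No called member changed direction. Of all 83 tested members 21 did so in at least 1 of 19 settings (79 of 1574 values). Among them, log2 fold changes ran over the widest ranges in *Rps27rt* (-0.85 to 0.49), *Rps27a* (-0.55 to 0.45) and *Rpl24* (-0.54 to 0.09). *Rpl17* gave -0.23 and *Rpl24* 0.09 with near copies merged. Among the 36 tested members named by rule, 8 changed direction, in 31 of 683 values. After quantile normalization *Rpl10* gave -0.13, *Rpl23* -0.12, *Rpl35* -0.086, *Rps28* -0.093 and *Rpl39l* 0.024. On the TPM scale, with either set of genes, *Rpl10* gave -0.075, *Rpl23* -0.041 and *Rpl35* -0.023. With array weights these 3 genes gave -0.053, -0.063 and -0.037, and without replicate 1 of both groups -0.037, -0.14 and -0.056. With voom *Rpl10* gave -0.041 and *Rpl23* -0.0080, and with near copies merged *Rps28* gave -0.057. Leaving out single libraries gave ranges of -0.038 to 0.042 for *Rpl10*, -0.051 to 0.101 for *Rpl23*, -0.073 to 0.240 for *Rps28*, -0.050 to 0.020 for *Rpl19*, -0.099 to 0.023 for *Rpl26*, -0.158 to 0.019 for *Rps27l* and -0.216 to 0.017 for *Rpl39l*.

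Of 570 list counts 110 moved by over 1.5 times. Voom, the merging of near copies and TPM on the genes of the reported fit were chosen after seeing the data. The planned negative binomial count tests were not run, because the deposited unit is FPKM. With 3 libraries a genotype, most differences of the members, near 0.909 of WT, were close to the spread within groups (median CV 7.01%).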
